A study of Homo sapiens with 5 samples.

Results

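The regions described here are MYF5 binding peaks of the cell line RH18 that lie away from acetylated chromatin. They were chosen by position: a peak belongs if its summit, the base of highest signal, lies more than 500 bp from every region marked by H3K27ac (histone H3 acetylated at lysine 27) in both RH18 and RD. Of the 11136 MYF5 peaks of RH18, 2192 met this rule (19.7%, exact 95% interval 18.9 to 20.4%), and they are called far peaks below. Another 2083 summits lay 1 to 500 bp outside a region of either line, called beside, and 6861 lay inside one. The rule is built from the peak positions of all 3 lists, so these counts and all distances to H3K27ac are descriptions.

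RH18 and RD are established human lines of rhabdomyosarcoma, a soft tissue cancer with features of skeletal muscle, and both are of the type without the PAX-FOXO1 gene fusion (fusion-negative). Chromatin immunoprecipitation and sequencing gave 1 H3K27ac library from each line and 1 MYF5 library from RH18, all from cells in the same serum-containing medium with no treatment named, fixed in 1% formaldehyde for 12 minutes. The 2 input samples are not used here as lists. Each group is thus 1 library of 1 line: peaks of a library are not replicates, no test between groups was possible, and the intervals given below cover counting error only. MYF5 in RD was not analysed here, so whether RD binds these sites is not known from these lists.

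MYF5 belongs to the basic helix-loop-helix proteins and is a relative of MYOD, myogenin and MRF4, and one of the first of these to be switched on in muscle progenitors. It pairs with ubiquitous E proteins and binds short DNA motifs called E-boxes, of which a genome holds far more than are ever active enhancers. H3K27ac is laid down by the acetyltransferases CBP and p300 at active enhancers and promoters, so a summit far from it lies outside the chromatin most often taken as active. Absence from an H3K27ac list means no listed peak, not no acetylation. The lowest deposited −log10 p-value was 7.09 in the RH18 list and 5.00 in the RD list. The lists thus reached down to different p-values, and how each was cut is not known here.

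Most far summits were well removed from acetylated chromatin rather than just past the limit. The median distance to the nearest region of either line was 11157 bp (95% interval of the median 10060 to 12534 bp), with quartiles at 2551 and 43844 bp and a maximum of 2363810 bp. By distance, 268 summits (12.2%) lay up to 1000 bp away, 508 (23.2%) up to 5000 bp, 557 (25.4%) up to 20000 bp, 574 (26.2%) up to 100000 bp and 285 (13.0%) beyond that. The gap between the acetylated regions on either side of a far summit had a median length of 82964 bp. It was 20 kb or less for 443 summits (20.2%) and over 100 kb for 980 (44.7%). The far summits were spread over 1787 such gaps, of which 1506 held 1 of them, 202 held 2 and 79 held 3 or more.

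**Figure D1:**
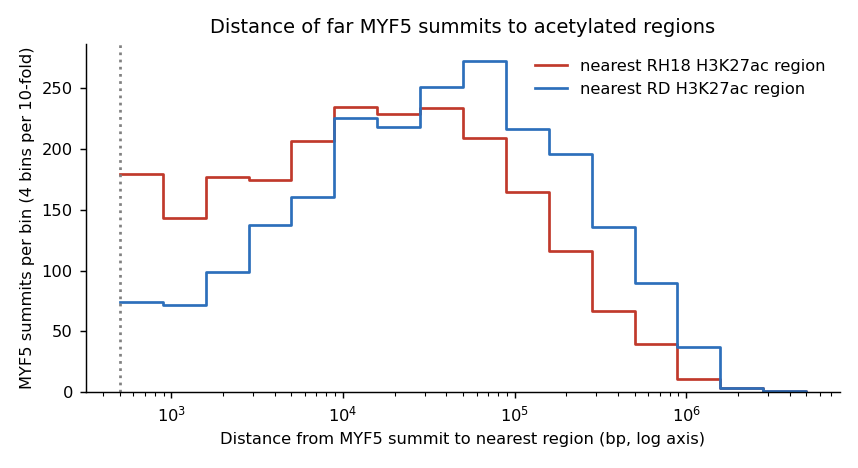
Number of far MYF5 summits (vertical axis) by distance in bp to the nearest H3K27ac region of RH18 (red) or RD (blue), on a log axis with a dotted line at the 500 bp limit. The RD curve lies to the right of the RH18 curve, with medians of 37880 and 15078 bp.

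Acetylated regions of RH18, the line in which MYF5 was mapped, were nearer than those of RD for 1596 of the far summits (72.8%). The median distance was 15078 bp to an RH18 region and 37880 bp to an RD region. Within 5 kb, 283 summits (12.9%) had a region in both lines, 393 (17.9%) in RH18 only, 100 (4.56%) in RD only and 1416 (64.6%) in neither. The lists held 46408 regions covering 32.5 Mb in RH18 and 43159 covering 21.2 Mb in RD, and the part of this in the difference was not tested. MYF5 signal, which the rule did not use, varied among these 4 sets. Median fold enrichment of MYF5, the ratio of signal at the summit to the local background as deposited by the authors, was 14.7 (95% interval 12.8 to 16.1) for the 100 summits with only an RD region within 5 kb. It was 11.6 (11.2 to 12.2) for those with only an RH18 region, 9.89 (9.25 to 10.8) for those with both and 11.9 (11.8 to 12.2) for those with neither. Median sequenced tags under the summit, recovered from the deposited values, ran in a narrower range: 46.5 (43.0 to 55.0), 40 (38.0 to 42.0), 40 (38.0 to 43.0) and 41.0 (40 to 42.0) in the same order. The summits with only an RD region within 5 kb thus had the highest median by both measures. Their interval for tags met that of the summits with a region in both lines, at 43.0.

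The RH18 regions nearest to far summits were somewhat weaker and narrower than the RH18 list. Their median fold was 12.6 (12.3 to 12.9) and their median width 402 bp (388 to 417 bp), against 13.98 (13.8 to 14.1) and 474 bp (470 to 477 bp) over all RH18 regions. In RD the nearest regions were narrower, at 334 bp (322 to 346 bp) against 358 bp (355 to 362 bp), but their median fold of 7.92 (7.73 to 8.01) overlapped that of the list, 8.0 (7.95 to 8.06). Over all RH18 regions, each counted once, 12.0% held a MYF5 summit. The nearest RH18 region held one for 367 of the 2192 far summits (16.7%, 15.2 to 18.4%). Regions nearest to several far summits enter this share, and the medians of nearest regions above, more than once, which the intervals ignore. That share had no steady order with distance: 15.3% (10.6 to 20.97%) up to 1000 bp, 21.1% (17.5 to 25.1%) up to 5000 bp, 18.8% (15.6 to 22.4%) up to 20000 bp, 13.8% (11.1 to 16.7%) up to 100000 bp and 13.9% (10.5 to 17.9%) beyond.

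By median fold of MYF5 signal, far peaks were neither the weakest nor the strongest of the classes. Their median fold was 11.9 (11.6 to 12.1), with quartiles at 9.42 and 15.2 and a range from 2.49 to 70.3. Peaks inside H3K27ac regions had a median fold of 10.4 (10.3 to 10.6), peaks beside them 12.8 (12.5 to 13.1), and all MYF5 peaks 11.2. In recovered tags the far peaks had a median of 41.0 (40 to 42.0), the same as the 41.0 (41.0 to 42.0) of peaks inside, and below the 48.0 (47.0 to 49.0) of peaks beside. The fold of far peaks thus exceeded that of peaks inside at equal median tags, and the recovered local background under them was lower. Tags and background were both recovered from fold and p-value, so these are not separate observations. The background, expressed as a multiple of the lowest value in the MYF5 list, had a median of 1.00 under far peaks, 1.16 under peaks beside and 1.42 under peaks inside. Background at that lowest value, within 1%, was found under 37.9% of all MYF5 peaks, and under 53.4% (51.3 to 55.5%) of far peaks, 43.8% of peaks beside and 31.2% (30.1 to 32.3%) of peaks inside. Among the peaks at the lowest background alone, the median tags were 39.0 (38.0 to 40) for the 1170 far peaks and 37.0 (36.0 to 37.0) for the 2139 inside.

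Far peaks were also narrower. Their median width was 231 bp (228 to 235 bp), against 250 bp (247 to 255 bp) beside and 269 bp (266 to 273 bp) inside. Of all MYF5 peaks 21.1% were narrower than 200 bp, and of the far peaks 617 (28.1%, 26.3 to 30.1%) were. At the lowest background the order was the same, with median widths of 224 bp for far peaks, 247 bp beside and 264 bp inside.

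**Figure D2:**
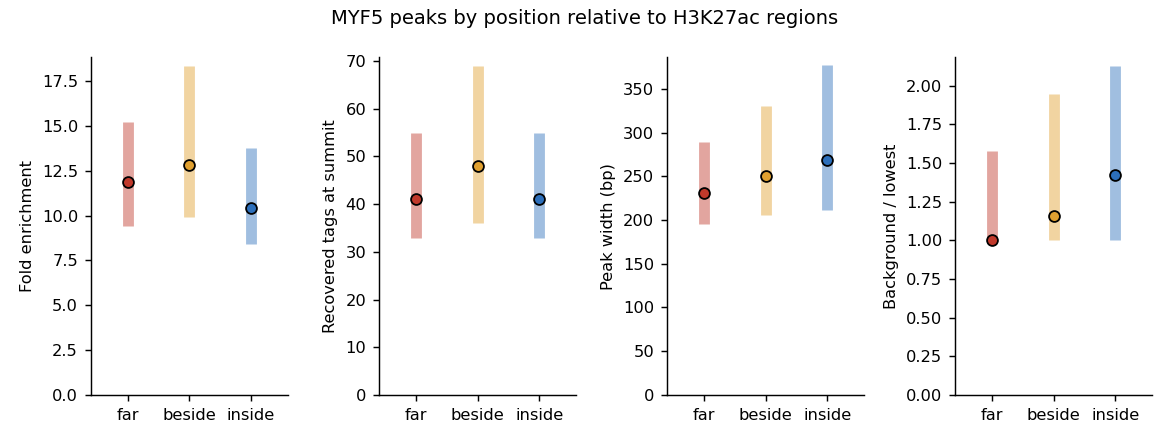
Median (circle) and interquartile range (bar) of MYF5 fold enrichment, recovered tags at the summit, peak width in bp and local background over the lowest of the list, for the 2192 far, 2083 beside and 6861 inside peaks. The far peaks had the lowest median width (231 bp) and background, and the same median of 41.0 tags as peaks inside.

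Across the whole MYF5 list, the share of far peaks changed more with width than with height. Ranked by width in deciles, it was 26.3% (23.7 to 29.0%) among the narrowest peaks, of 172 to 182 bp, and 8.80% (7.20 to 10.6%) among the widest, of 497 bp and more. Ranked by tags, it was 20.6% (18.2 to 23.1%) in the lowest decile, 21.9% in the third and 16.8% (14.6 to 19.1%) in the highest. Ranked by fold, the share was lowest in the second decile and highest in the sixth. It was 17.2% (15.1 to 19.6%) in the lowest decile, 13.6% in the second, 26.7% (24.1 to 29.4%) in the sixth and 19.3% (17.0 to 21.7%) in the highest. Among the 100 MYF5 peaks of highest fold, 19 were far, and among the 100 with most tags 15 were, beside the 19.7% over all peaks. Far peaks were thus present at every height of the MYF5 list, including its top.

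**Figure D3:**
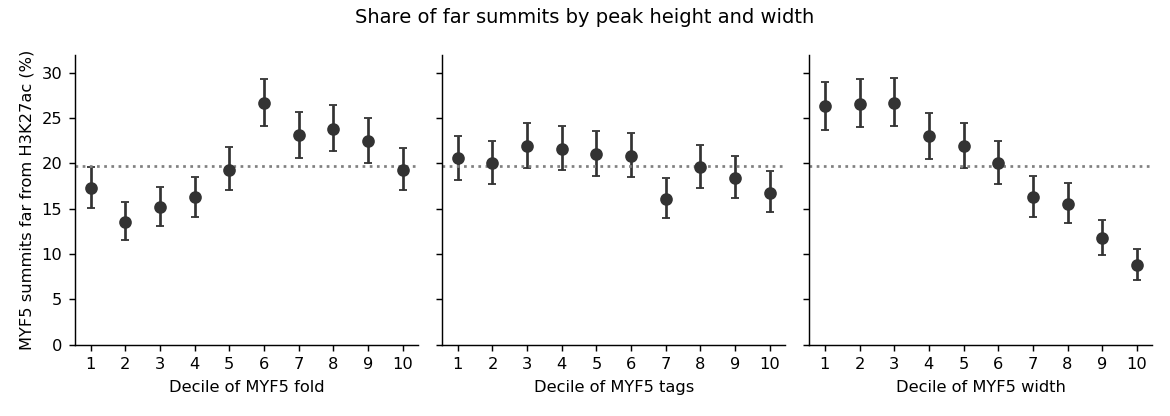
Percent of MYF5 summits that are far from H3K27ac (vertical axis, with exact 95% intervals) in each decile of MYF5 fold, recovered tags or peak width, decile 1 being the lowest; the dotted line is the 19.7% of all peaks. The share falls from 26.3 to 8.80% with width, while by fold it is highest in decile 6 (26.7%).

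Median MYF5 signal at far peaks had no steady order with the distance to acetylated chromatin, while width and the highest fold were lowest in the farthest class. Median fold was 12.5 (11.9 to 13.1) at distances up to 1000 bp, 10.9 (10.4 to 11.3) up to 5000 bp, 11.2 (10.9 to 11.7) up to 20000 bp, 12.2 (11.9 to 12.5) up to 100000 bp and 12.8 (12.2 to 13.3) beyond. Median tags were 43.0, 40, 40, 42.0 and 41.0 in these classes. Local background of at least 4 times the lowest lay under 5.22, 8.66, 7.72, 3.48 and 1.05% of their peaks, beside 4.91% of all MYF5 peaks. Its part in the order of the folds was not tested. Median width went from 243 and 248 bp in the nearer classes to 228, 222 and 216 bp in the farther ones. The highest fold in each class was 70.3, 64.4, 59.9, 62.1 and 44.3, in the same order.

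Far summits had another MYF5 summit nearby less often than summits inside H3K27ac regions, and at short range about as often as those beside. Another MYF5 summit lay within 50 kb of 65.5% of all MYF5 summits, but of 1198 far ones (54.7%, 52.5 to 56.8%), 62.6% of those beside and 69.9% (68.8 to 71.0%) of those inside. The median distance to the next MYF5 summit was 41780 bp for far summits and 15842 bp for those inside. Within 10 kb the share was 38.9% of all summits and 29.3% (27.4 to 31.2%) of the far ones, 31.7% (29.7 to 33.8%) of those beside and 44.1% (42.9 to 45.3%) of those inside. Within 1 kb it was 15.0% of all summits, 9.72% (8.51 to 11.03%) of the far, 7.87% (6.75 to 9.11%) of those beside and 18.9% (18.0 to 19.8%) of those inside. By distance to H3K27ac, another MYF5 summit lay within 50 kb of 66.0% of far summits up to 1000 bp away. This share was 74.8% up to 5000 bp, 66.4% up to 20000 bp, 39.2% up to 100000 bp and 16.1% beyond. Part of this fall follows from position: beyond 100000 bp, any MYF5 summit within 50 kb must itself be far. The nearest other MYF5 summit was itself far for 874 of the far summits (39.9%), was beside for 448 and lay inside a region for 870. Over all MYF5 summits, the nearest other one was far in 18.8% of cases. Close summits have nearly the same distance to H3K27ac, so the rule itself builds in part of this difference.

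Joining far summits within 10 kb of each other left 1787 on their own and put 405 (18.5%) into 162 clusters, of which 118 were pairs. The largest cluster held 19 summits over 34340 bp of chromosome 12 (hg19, 70360713 to 70395423). Their folds were low, from 4.02 to 12.5, but they rested on 46 to 100 tags, with a median background 8.04 times the lowest. The next in size, of 7 and 6 summits, were also on chromosome 12 (89751173 to 89767087 and 70222761 to 70235546), at median backgrounds 6.82 and 6.26 times the lowest. A cluster of 5 summits on chromosome 7 (26222549 to 26228518) had folds from 6.02 to 19.6 at a median background of 1.00, and lay 10770 bp or more from H3K27ac. High folds were found in a cluster of 4 on chromosome 14 (21093475 to 21101527, folds 15.9 to 44.1, 48702 bp or more from H3K27ac) and one of 4 on chromosome 6 (26553614 to 26556941, folds 17.0 to 53.7, 12534 bp or more).

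By chromosome, the share of MYF5 summits that were far ran from 11.2% (8.72 to 14.2%) on chromosome 19 to 28.5% (20.7 to 37.3%) on chromosome X. Chromosomes 16, 22 and 1 were also low (12.8, 13.0 and 14.7%), and chromosomes 13 and 4 high (28.2 and 28.1%), the latter with only 128 MYF5 peaks. Chromosome 2 held the most far peaks, 214 of 1052. Median fold of far peaks was lowest on chromosome 12, at 6.65 beside 9.10 for all its MYF5 peaks, and was 8.98 to 13.7 on the other chromosomes. RH18 H3K27ac regions per MYF5 peak numbered 8.93 on chromosome 4, 8.16 on chromosome X and 4.18 on chromosome 13. They numbered 7.77 on chromosome 9 (far share 19.0%) and 4.35 on chromosome 19. This ratio does not measure how densely regions lie along a chromosome, and the part of that density in the far share was not tested.

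**Figure D4:**
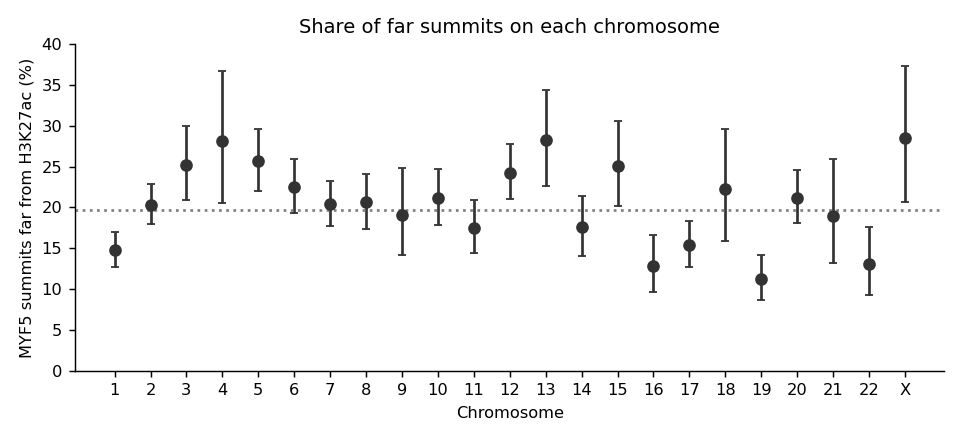
Percent of MYF5 summits on each chromosome that are far from H3K27ac, with exact 95% intervals; the dotted line is the 19.7% of all peaks. Chromosome 19 is lowest at 11.2%, and chromosomes X, 13 and 4 are highest at 28.1 to 28.5%.

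Chromosome 12 set itself apart by its background. Local background of at least 4 times the lowest lay under 4.91% of all MYF5 peaks and under 124 far peaks (5.66%, 4.73 to 6.71%), of which 84 were on chromosome 12. Over all MYF5 peaks, 224 of the 547 with raised background were on that chromosome. The far peaks of raised background had a median fold of 4.99 and 70.5 tags, against a fold of 12.2 for the 2068 others. Low fold with many tags was found at raised background in the other classes too, with medians of 5.65 and 62.0 tags inside H3K27ac regions and 6.31 and 73.0 tags beside them. The megabase of chromosome 12 from 70000001 held the most far summits, 41 of its 66 MYF5 summits, and 38 of these 41 had raised background. Megabases of the same chromosome from 89000001, 48000001 and 69000001 held 13, 12 and 11 far summits, with raised background under 7, 11 and 11. Copy number was not measured in these lists, and its part in the background and in these counts was not tested. Without chromosome 12, far peaks made up 19.4% of MYF5 peaks and had a median fold of 12.0.

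**Figure D5:**
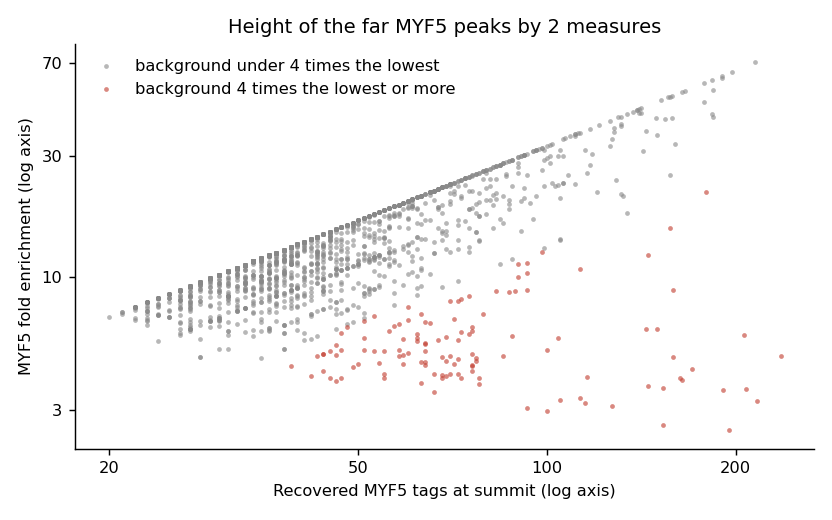
Each point is a far MYF5 peak, with recovered tags at the summit (horizontal) and deposited fold enrichment (vertical), both on log axes. The 124 peaks whose local background is at least 4 times the lowest (red) have a median of 70.5 tags but a median fold of only 4.99.

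At the lowest fold, the 3 far peaks all came from chromosome 12. The peak at 49080179 to 49080618 had a fold of 2.49 from 195 tags, over a background 49.7 times the lowest. Those at 49041831 to 49042093 (fold 2.62, 153 tags) and 70013989 to 70014182 (fold 2.97, 100 tags) also stood over a background at least 20.9 times the lowest. A peak of low fold enters such a list only with many tags, since the lowest −log10 p-value in the MYF5 list was 9.09.

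At the other end, the 10 far peaks of highest fold had 158 to 215 tags, and 8 of them stood over the lowest background. The highest was on chromosome 8 (23836731 to 23837130, fold 70.3) and ranked second among all MYF5 peaks. It had 215 tags (95% Poisson interval 187 to 246) and lay 758 bp from an RD region and 997 bp from an RH18 region. A pair of summits 572 bp apart stood on chromosome 17, the higher at 8022288 to 8022700 (fold 64.4, 197 tags), 1356 bp from RH18 acetylation and 19866 bp from that of RD. On chromosome 14, the peaks at 21081336 to 21082126 (fold 62.1, 190 tags) and 21078141 to 21078549 (fold 58.1, 178 tags) had no region of either line within 67997 bp. The peak on chromosome 2 (157257094 to 157257854, fold 60.96, 190 tags) was the member closest to the limit, 718 bp from RD acetylation and just past 500 bp from that of RH18.

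The others of the 10 were spread over 4 chromosomes. On chromosome 6 they lay at 27560407 to 27560805 (fold 59.9, 183 tags), 12537 bp from an RD region, and at 26554238 to 26554560 (fold 53.7, 164 tags), 14969 bp from one. The peak at 58706429 to 58706813 of chromosome 14 (fold 54.5, 184 tags) was 701 bp from RH18 acetylation. That on chromosome 3 (140259038 to 140259471, fold 54.4, 166 tags) lay 1198 bp from an RH18 region but 401882 bp from the nearest RD region. The last, on chromosome 16 (70812814 to 70813231, fold 51.8, 158 tags), lay 1166 bp from an RH18 region and 12382 bp from one in RD. Another MYF5 summit lay within 1 kb of 5 of these 10 peaks, a share with an interval of 18.7 to 81.3%, beside 9.72% of all far peaks.

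The 100 far peaks of highest fold, from 27.1 to 70.3, were looked at after the 10 were seen. Most of them, 74, were alone in their megabase, and the other 26 shared 8 megabases. The megabase of chromosome 6 from 27000001 held 7 of them and the one from 26000001 held 3, the megabase of chromosome 14 from 21000001 held 5, and that of chromosome 17 from 8000001 held 3. Another MYF5 summit within 1 kb was seen for 15 of the 100 (8.65 to 23.5%) and for 9.46% (8.24 to 10.8%) of the other far peaks, with intervals that overlap. Their median distance to H3K27ac, 12260 bp, was close to the 11118 bp of the others.

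The pair of chromosome 6 megabases held 25 far peaks among 98 MYF5 peaks. The far ones had a median fold of 24.2 (19.1 to 27.8), and all MYF5 peaks there one of 22.4 (17.0 to 26.7), so high fold in this stretch was not limited to its far peaks. The chromosome 6 stretch is known as a site of histone gene clusters and of many genes for transfer RNA, short genes read by RNA polymerase III. Clusters of transfer RNA genes are also known on the short arm of chromosome 17 and the long arm of chromosome 14. Whether these peaks lie at such genes was not analysed here, and no control immunoprecipitation was used to tell MYF5 binding from unspecific signal.

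Of the 5 most remote far peaks, 4 had fewer tags than the far median of 41.0. On chromosome 5, the peaks at 23823655 to 23823832 (fold 11.5, 34 tags) and 23675586 to 23675760 (fold 6.77, 30 tags) lay 2363810 and 2215789 bp from the nearest region of either line, and 148021 bp from each other. On chromosome 4, the peak at 91985624 to 91985932 (fold 15.1, 45 tags) was 1226357 bp from an RD region and 1952730 bp from an RH18 region. The peak on chromosome 3 (109421113 to 109421284, fold 11.5, 34 tags) was 1112226 bp from the nearest region. On chromosome 20, that at 53971283 to 53971495 (fold 9.58, 28 tags) was 962872 bp away. With 28 to 45 tags, these summits carry wide counting intervals, for example 18.6 to 40.5 for the 28 tags.

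The limit itself cut through a continuous range of distances: 37 summits lay within 50 bp beyond it and 39 within 50 bp short of it. Just beyond it were the chromosome 2 peak named above, a peak on chromosome 8 (93660458 to 93660699, 502 bp, fold 12.8) and another on chromosome 8 (118859950 to 118860209, 505 bp, fold 11.5). Just short of it were peaks on chromosome 6 (27758979 to 27759277, 500 bp, fold 41.4), chromosome 12 (48136091 to 48136679, 499 bp, fold 4.04) and chromosome 7 (44203285 to 44203529, 496 bp, fold 11.9).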

How the data were processed

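Peak lists of 3 libraries were used, each deposited for 1 library. The tools BWA 0.7.10 and MACS2 2.1.0 and the build hg19 come from the submitters' processing notes, where no control or threshold was read. The deposited values per peak are the fold (a ratio over local background), the −log10 p-value and q-value, and the summit. From fold and p-value, the tags and background at each MYF5 summit were recovered with MACS2's formulas. A tag was worth 0.658 pileup units, and 100% of the 11136 peaks gave whole tags within 0.1 tag; 2072 of them had more than 1 solution, settled by the nearest whole tag, and the share was also 100% among the 9064 with only 1. Total depth is not given in the sources used here. Distances ran from the summit to the facing base of a region. Shares carry exact Clopper-Pearson intervals and medians order-statistic intervals, all at 95%. Motif, transfer RNA and gene start results had been planned, but no hg19 genome or annotation was used. Named peaks were the 10 of highest fold, the 5 most distant, the 3 of lowest fold, and 3 on each side of the limit. Members and lists were chosen with earlier results of these data known. The code was tested on simulated data. The simulated backgrounds stayed far below the highest of the MYF5 list, so recovery of tags at strongly raised background was not simulated. Software comprised scipy 1.17.1, pandas 2.3.3 and numpy 2.4.6 under Python 3.11.15, with plots by matplotlib 3.10.9. The labels name no separate cultures, and each group had 1 library.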

Additional observations from a re-analysis of the deposited data

How the results depend on the processing

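Of 52 values recomputed under 12 settings, 33 stayed within the interval of the reported value (for the number of far peaks, within a factor of 1.5) and 19 moved. Several settings could move a value in only 1 direction, as given below, so this tally does not measure robustness. The settings without chromosome 12 and without the crowded megabases of chromosome 6 were chosen after seeing the data, and moved none. With a limit of 1000, 2000 or 5000 bp the far share was 17.3, 15.4 and 12.7%, and at 5000 bp the number was 1416; a longer limit can only remove members. The share was 27.9% with the RH18 list alone (median fold 12.2), 18.7% with distance taken from the peak edge, and 21.8% with H3K27ac regions of −log10 q of at least 10, which kept 29466 RD and 44460 RH18 regions. Fewer H3K27ac regions can only add members, and distance from the peak edge can only remove them. MYF5 peaks of −log10 q of at least 20 left 1273 far peaks (21.1%), with a median fold of 14.4 and 50 tags. Of these far peaks, 36.6% had another MYF5 peak within 50 kb, with neighbours sought only among the 6027 MYF5 peaks kept. The q-value rises with fold and tags, and fewer possible neighbours can lower the share in any class. Without raised background the median fold was 12.2 and the share with a neighbour, again sought among the peaks kept, was 51.7%. That share was 50.3% at a limit of 2000 bp and 45.3% at 5000 bp, and, for neighbours within 10 or 100 kb, 29.3 and 69.2%. A shorter reach for neighbours can only lower the share, and a longer reach can only raise it. Alternatives for the 5 results that need sequence or annotation were not run. Leaving out a replicate was not possible with 1 library per group. No paired analysis was possible because each group held 1 library and no test was run. The weakest far peaks rest on as few as 20 tags, which limits what their folds show.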
